A study of Mus musculus with 6 samples.

Results

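Gene expression was compared between mouse blastocysts flushed from the uterus of mice treated with a compound named ICI and blastocysts collected from ligated oviducts. A probe belonged to the comparison where the authors' detection p-value was under 0.05 on both arrays of either group. This rule took in 17341 of 45281 probes on the array, and these represent 9687 of 19057 named genes. Of the 17341 probes, 14884 met the rule in both groups, 998 in the ICI-treated group alone and 1459 in the oviduct group alone. Probes near the threshold were dim. The 416 probes just inside it (detection p 0.04 to 0.05) had a median log2 signal of 5.02 and the 361 just outside it (0.05 to 0.06) one of 4.98, where the median of the 17341 probes was 7.27.

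All donors were outbred CD-1 females. They received pregnant mare serum gonadotropin (5 IU) and, 44 h later, human chorionic gonadotropin (5 IU), and were then mated, with the plug day counted as day 1. No genotype or transgene is named for any group. ICI-treated females received 0.5 µg of ICI each, and their embryos came from the uterus. The labels give no further name for the compound. The protocol mentions 70 h after the second hormone, and its wording leaves unclear whether ICI was given or embryos were flushed then. Oviduct embryos came from untreated females whose oviducts were ligated on day 4, the day the protocol also gives for their collection, so how long they stayed behind the ligature is unknown here. A uterus group, flushed from untreated pregnant females, shared the statistical model and is set beside the others where it helps. The 2 groups compared thus differ in treatment, in the organ the embryos came from and in the ligation, and these cannot be told apart. Each group had 2 arrays, and each array held labelled RNA of 1 pool of 100 to 120 embryos described as day 3.5.

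A blastocyst is the stage at which the mouse embryo passes from the oviduct into the uterus and prepares to implant. Its outer epithelium, the trophectoderm, pumps fluid into a cavity and later forms the placenta, while the inner cell mass gives rise to the epiblast and the primitive endoderm. Ovarian estrogen acts on the uterus to open the period in which it accepts the embryo, and the oviduct, which secretes its own glycoproteins, normally holds the embryo only before that. The title of the study refers to genes regulated by estrogen in embryos before implantation.

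Arrays were of like quality, but the oviduct pools were less alike than the others. Between 16525 and 18182 probes were above background on an array, with a median of 43 or 44 beads behind a probe. Precision is limited by how many arrays there were. Replicate arrays correlated across probes, which are not independent replicates, at r = 0.991 for ICI-treated, 0.96 for oviduct and 0.988 for uterus embryos. On the log2 scale, the replicate SD (root mean square over probes) was 0.21, 0.44 and 0.25 in the same groups. Arrays of ICI-treated embryos correlated with those of oviduct embryos at 0.951 to 0.965. The labels do not say if a group's 2 pools had separate donor animals. The p-values therefore reflect the spread between these samples alone, which may be technical.

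Keratin and lineage transcripts of the blastocyst were present in every pool. Krt8, a keratin gene of the trophectoderm, had log2 signals of 13.63 and 13.63 in ICI-treated embryos, 13.74 and 13.27 in oviduct embryos and 13.62 and 13.61 in uterus embryos. Cdx2, a transcription factor gene that specifies the trophectoderm, stood at 12.76 and 12.50 in ICI-treated embryos, 12.08 and 12.16 in oviduct embryos and 13.23 and 12.81 in uterus embryos. Its log2 difference between ICI-treated and oviduct embryos was 0.51 (SE 0.21, limma adjusted p = 0.244). Pou5f1, a pluripotency factor gene, was at 11.86 and 11.85 in ICI-treated embryos, 10.28 and 12.20 in oviduct embryos and 11.50 and 11.40 in uterus embryos. The oviduct pools thus lay on either side of the ICI-treated ones for Pou5f1, and the log2 difference of 0.61 (SE 0.55, limma adjusted p = 0.544) was -0.35 without oviduct replicate 1.

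ICI-treated embryos differed from oviduct embryos at 60 probes, which represent 44 named genes. Of the probes tested, 39 were higher and 21 lower in the ICI-treated embryos, with log2 differences of 1.36 to 5.13 and of -2.87 to -1.29. Here and below, rose and fell mean higher and lower in ICI-treated than in oviduct embryos, and name no cause. Among the named genes that rose were the developmental regulators Msx1, Bmp4 and Cebpa and the enzyme genes Adh1 and Gsta1. Among those that fell were the alpha-arrestin genes Txnip and Arrdc4, the cytokine gene Tnfsf13b and the lysosomal protease gene Ctsz. All tests used limma over all 6 arrays and 17677 probes above background in any group, with Benjamini-Hochberg adjustment and a threshold of 0.05. The 60 probes are 0.339% of those tested (0.221% higher and 0.119% lower), and 0.346% of the 17341 probes of the comparison. Their adjusted p ran from 0.00507 to 0.0499, and 488 further probes lay between 0.05 and 0.1. Before adjustment, 3661 probes had a p under 0.05 (1850 higher, 1811 lower), and chance alone gives 884. The count depended on which arrays were in the fit. It was 0 without ICI replicate 1, ICI replicate 2, uterus replicate 1 or uterus replicate 2 (2053, 1405, 2878 and 2876 probes at an unadjusted p under 0.05), and also 0 in a fit of the 4 arrays of these groups alone (2883 probes at an unadjusted p under 0.05). Without oviduct replicate 1 or oviduct replicate 2 the count rose, but the lone oviduct array was then assumed to vary like the other groups. Replicate SD was 0.44 in oviduct embryos against 0.21 and 0.25 in the others, so that rise is no measure of stability. The fit of all 6 arrays likewise used 1 estimate of spread for the 3 groups. Its SE and adjusted p may therefore understate the spread of the oviduct pools. With array weights, 11 probes passed. Uterus arrays enter the comparison only through this estimate, the normalization and the probe filter.

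**Figure D1:**
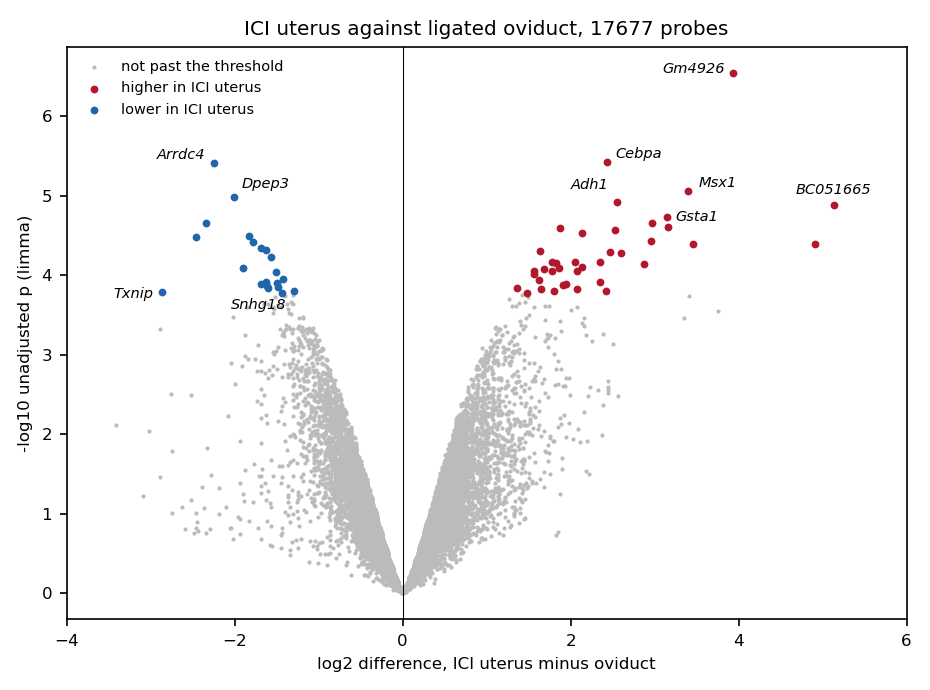
Each point is 1 of the 17677 tested probes, with the log2 difference, ICI-treated uterus minus oviduct, on the horizontal axis and −log10 of the unadjusted limma p on the vertical axis; the 60 probes past an adjusted p of 0.05 are coloured, 39 on the right and 21 on the left. The called probes lie at log2 differences of at least 1.36 or at most -1.29, and many probes with differences as large lie below them.

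Size alone did not decide a call. The log2 difference was past 1 in either direction at 1071 probes, 626 higher and 445 lower, of which 60 were called, and past 2 at 89 probes, of which 28 were called. Arrays of the groups did not overlap at any of the 60 probes, a separation found at 53.4% of all probes tested (26.1% higher and 27.3% lower). Among the called probes, 3 were above background on no oviduct array and 2 on no array of ICI-treated embryos. Another 7 were above background on 1 of the 2 oviduct arrays, and 2 on 1 of the 2 arrays of ICI-treated embryos. For those, differences are given as measured and are inexact. Oviduct replicate 2 lay farther from the ICI-treated mean than oviduct replicate 1 at 28 of the 39 higher probes and 12 of the 21 lower ones.

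Msx1, Bmp4 and Cebpa were among the regulators of development that rose. Msx1, a homeobox transcription factor gene that is a known target of bone morphogenetic proteins, had log2 signals of 7.92 and 8.77 in ICI-treated embryos, 4.88 and 5.01 in oviduct embryos and 8.43 and 8.35 in uterus embryos. It was higher in ICI-treated embryos by 3.40 on the log2 scale (SE 0.29, limma adjusted p = 0.0328), and 1 of the 2 oviduct arrays was above background. Bmp4, which encodes one of those ligands, had a probe at 7.44 and 7.78 in ICI-treated embryos, 5.39 and 4.77 in oviduct embryos and 7.02 and 6.97 in uterus embryos. That probe rose by 2.53 (SE 0.25, limma adjusted p = 0.0361). The brighter Bmp4 probe stood at 10.66 and 10.84 in ICI-treated embryos and at 9.98 and 8.09 in oviduct embryos, and did not pass (log2 difference 1.71, SE 0.54, limma adjusted p = 0.164). Cebpa, a transcription factor gene of epithelial, liver, fat and myeloid cells, stood at 7.39 and 7.47 in ICI-treated embryos, 4.96 and 5.04 in oviduct embryos and 7.40 and 7.17 in uterus embryos. Its arrays agreed closely within each group, and it rose by 2.43 (SE 0.18, limma adjusted p = 0.0232).

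Further genes of transcription and signalling that passed were Irx2, Wnt6, Grhl1, Gpr20, Gng2, Blnk and Dusp6. Irx2, an Iroquois homeobox gene, was at 8.36 and 8.50 in ICI-treated embryos and at 6.51 and 5.52 in oviduct embryos, a log2 rise of 2.42 (SE 0.32), and its other probe did not pass (1.32, adjusted p = 0.0686). Wnt6, a Wnt ligand gene expressed in trophectoderm, was at 9.03 and 9.51 in ICI-treated embryos, 7.57 and 7.40 in oviduct embryos and 9.80 and 9.71 in uterus embryos, a log2 rise of 1.78 (SE 0.22, limma adjusted p = 0.0411). A second Wnt6 probe was just short of the threshold (1.74, adjusted p = 0.0526) and the last one had a difference of 0.20. Grhl1, a transcription factor gene of epithelial differentiation, rose by 1.87, with 1.16 (adjusted p = 0.153) at its other probe, and the orphan receptor gene Gpr20 rose by 1.82. Gng2, which encodes a gamma subunit of heterotrimeric G proteins, rose by 1.86, with 1.37 (adjusted p = 0.0839) at its other probe. Blnk, an adaptor gene known from B cell receptor signalling, was at 7.43 and 7.88 in ICI-treated embryos and 5.05 and 4.31 in oviduct embryos, a log2 rise of 2.97 (SE 0.29), with a second probe at 3.16. Dusp6, which encodes a phosphatase that inactivates ERK kinases, had a probe above background on no oviduct array and at least 2.1-fold higher in ICI-treated embryos (limma adjusted p = 0.0499). Its other probes were detected on both oviduct arrays and did not pass (0.84 and 0.71). At the first probe, uterus arrays of Dusp6 read 4.69 and 5.08, near the oviduct arrays (4.51 and 4.55) and below those of ICI-treated embryos (6.06 and 5.97).

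Adh1, Gsta1, Gsta2, Slc15a2 and Trpv5, which encode enzymes and transporters, also rose. Adh1, an alcohol dehydrogenase gene whose enzyme oxidises ethanol and retinol, had signals of 12.45 and 12.74 in ICI-treated embryos, 9.93 and 10.17 in oviduct embryos and 11.32 and 11.74 in uterus embryos. It rose by 2.55 on the log2 scale (SE 0.23, limma adjusted p = 0.0328), and its other probe rose by 2.14. Gsta1, a glutathione transferase gene, stood at 8.64 and 9.54 in ICI-treated embryos, 5.96 and 5.94 in oviduct embryos and 8.69 and 8.58 in uterus embryos. The 3 Gsta1 probes rose by 3.46, 3.15 and 2.60. Gsta2 rose by 2.96 (SE 0.31, limma adjusted p = 0.0361), and since it is a near-identical copy of Gsta1 the signals of the pair may not be separate. Slc15a2, a transporter gene of di- and tripeptides, was at 10.75 and 11.29 in ICI-treated embryos and at 9.04 and 8.31 in oviduct embryos, a log2 rise of 2.35 (SE 0.30). Its other probe, at 10.52 and 10.59 in ICI-treated embryos and at 9.79 and 6.95 in oviduct embryos, did not pass (2.18, SE 0.79, adjusted p = 0.2). Trpv5, a calcium channel gene of epithelia, rose by 2.05 (SE 0.24), and was above background on 1 of the 2 oviduct arrays. The antioxidant and glutathione list does not hold Gsta1 or Gsta2. Its median was 0.11 over 31 genes, 19 above and 12 below 0, with none called. Its genes of smallest p were Gpx3, a secreted glutathione peroxidase gene (-1.26, adjusted p = 0.1), and Gsta4, another glutathione transferase gene (0.89, adjusted p = 0.132).

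Rab15, Rab25, Lcp1, Msn, Sun2 and Arl14 also rose. Rab15, which encodes a small GTPase of endosomal recycling, was at 10.71 and 11.24 in ICI-treated embryos and at 8.80 and 8.21 in oviduct embryos, a log2 rise of 2.47 (SE 0.27). Rab25, another recycling GTPase gene of epithelia, rose by 1.95, with 1.06 (adjusted p = 0.12) at its other probe. Lcp1, which encodes an actin-bundling plastin, stood at 10.13 and 10.64 in ICI-treated embryos and at 8.48 and 8.15 in oviduct embryos, a log2 rise of 2.07 (SE 0.25). Msn, which encodes moesin, a linker of actin to the plasma membrane, rose by 2.08 (SE 0.27) at 1 probe and had differences of 0.56 and 0.10 at its other probes, neither past the threshold. Sun2, a gene of the link between nuclear envelope and cytoskeleton, rose by 1.80 and 1.78 at its 2 probes. The small GTPase gene Arl14 was above background on no oviduct array and was at least 2.43-fold and at least 2.38-fold higher in ICI-treated embryos at its 2 probes.

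The other genes that rose do not share one role. Acpp, an acid phosphatase gene known from prostate, rose by 2.35 (SE 0.27) at 1 probe, with differences of 0.77 and 0.74 at the others. Ldoc1, derived from a retrotransposon, rose by 2.13 (SE 0.22), with 1.44 (adjusted p = 0.122) at its other probe. Rises of 1.65 for the reticulon gene Rtn1, 1.56 for the kinase gene Nuak1, 1.56 for the membrane protein gene Tmem150a and 1.36 for the lipid phosphatase gene Plpp1 were smaller. Each of these genes also had probes that did not pass, at 1.13 and 1.24 for Rtn1, 1.57 for Nuak1, 0.93 for Tmem150a and 0.86 and 0.73 for Plpp1. Rab25, Grhl1, Gng2, Gpr20, Sun2, Arl14, Dusp6, Rtn1, Nuak1, Tmem150a and Plpp1 fell outside the rule for named genes and were added after their values were seen, as were the 3 genes below that carry clone names.

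The steepest differences belonged to a pair of these clone-named genes. BC051665 had signals of 10.53 and 11.46 in ICI-treated embryos, 6.48 and 5.24 in oviduct embryos and 11.06 and 10.76 in uterus embryos, a log2 rise of 5.13 (SE 0.46, limma adjusted p = 0.0328), or 35.1-fold. Its other probe rose by 4.91. Gm4926 stood at 8.91 and 9.19 in ICI-treated embryos, 5.25 and 4.99 in oviduct embryos and 8.02 and 7.94 in uterus embryos. It had the smallest adjusted p of all probes (0.00507), with a log2 rise of 3.93 (SE 0.20), or 15.3-fold. The last, C430049B03Rik, rose by 1.62. Another 7 of the 60 probes have no symbol in the platform annotation, 2 of them higher and 5 lower.

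**Figure D2:**
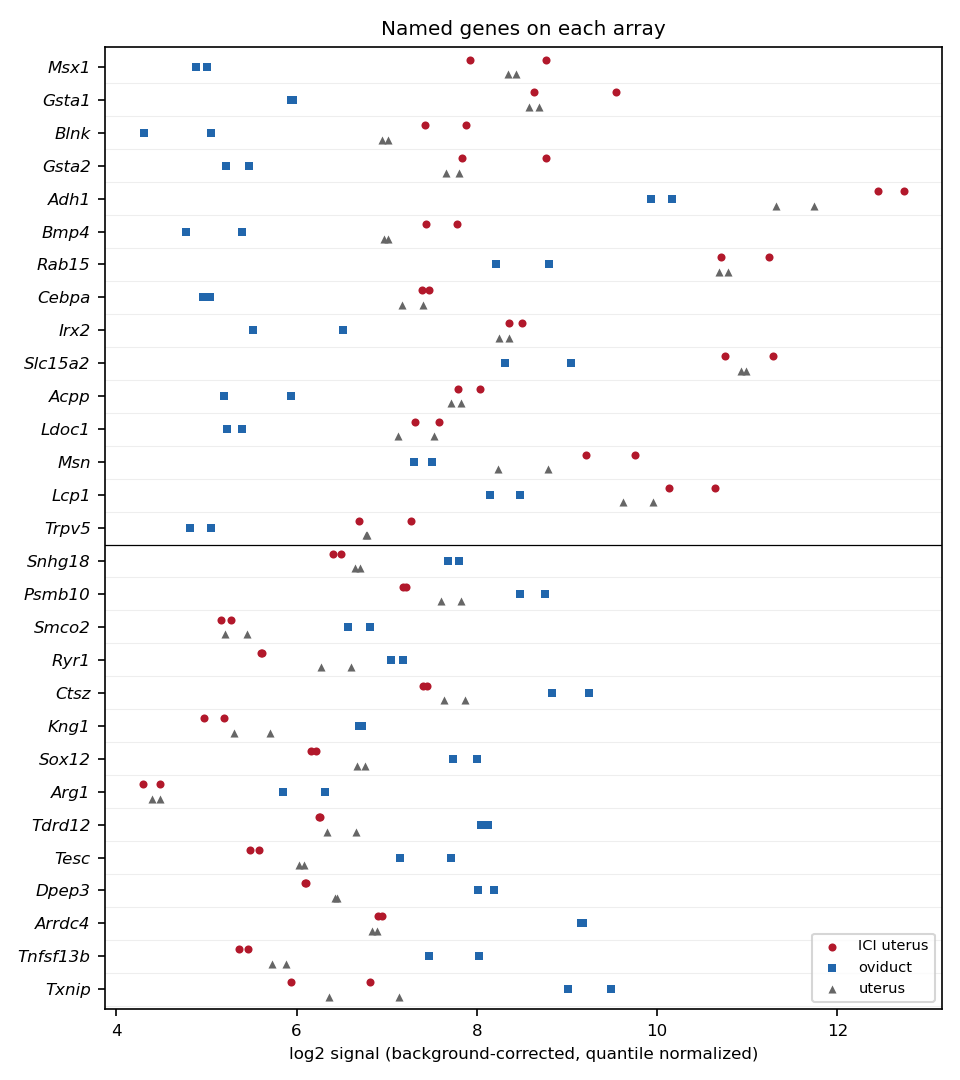
Log2 signal on each array for 29 of the 44 named genes that passed the test, with genes down the page. They are the 15 of highest difference apart from clone-named genes, and the 14 that were lower. Arrays of ICI-treated uterus, oviduct and uterus embryos have separate markers. For each gene the points of ICI-treated embryos lie apart from those of oviduct embryos, and the uterus points lie mostly beside those of ICI-treated embryos.

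Lower in ICI-treated embryos were 14 named genes, among them Txnip and Arrdc4. Txnip encodes thioredoxin-interacting protein, an alpha-arrestin that restrains glucose uptake and binds thioredoxin, and its relative Arrdc4 acts in the same way on glucose uptake. In other cells both are targets of the glucose-sensing factors encoded by Mlxip and Mlxipl, which bind paired E boxes together with Mlx. Promoter windows of the pair, from 250 bases before to 50 bases after the start of transcription, are shown because the pair moved together. They come from RefSeq on GRCm38.p6, at chr3:96557707-96558006 on the plus strand for Txnip and chr7:68749189-68749488 on the minus strand for Arrdc4. Capitals mark CCAAT on either strand, the E box CACGTG in Arrdc4 and, in Txnip, CACGAG followed by any 5 bases and a second CACGAG.
Txnip: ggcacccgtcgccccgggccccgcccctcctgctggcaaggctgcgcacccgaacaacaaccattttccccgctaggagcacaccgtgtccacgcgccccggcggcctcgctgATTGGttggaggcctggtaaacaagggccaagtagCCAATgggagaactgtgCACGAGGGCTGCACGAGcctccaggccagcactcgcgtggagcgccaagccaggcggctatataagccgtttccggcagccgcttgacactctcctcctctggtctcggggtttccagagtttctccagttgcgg
Arrdc4: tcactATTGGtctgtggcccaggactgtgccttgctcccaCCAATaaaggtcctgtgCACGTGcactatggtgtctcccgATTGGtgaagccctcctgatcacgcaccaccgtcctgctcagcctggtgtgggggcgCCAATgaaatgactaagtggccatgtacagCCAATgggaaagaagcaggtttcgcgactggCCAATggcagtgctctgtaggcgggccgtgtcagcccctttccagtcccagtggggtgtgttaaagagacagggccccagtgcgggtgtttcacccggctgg
In the Txnip window the CACGAG pair occurred once, with the letters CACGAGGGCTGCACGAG, starting 85 bases before the start, and CCAAT occurred 2 times. CACGTG did not occur there. In the Arrdc4 window CACGTG occurred once, starting 193 bases before the start, and CCAAT 6 times. Over 32851 windows of 27025 mouse genes, searched on both strands, 7.15% held CACGTG and 37.4% held CCAAT, while the Txnip window was the 1 with the CACGAG pair (0.00304%), which was spelled out, like CCAAT, after these windows had been read.

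Arrdc4 had log2 signals of 6.95 and 6.90 in ICI-treated embryos, 9.18 and 9.16 in oviduct embryos and 6.84 and 6.89 in uterus embryos. It fell by 2.25 on the log2 scale (SE 0.17, limma adjusted p = 0.0232), or 4.74-fold, and its replicates differed by at most 0.05 in each group. Txnip stood at 6.82 and 5.94 in ICI-treated embryos, 9.01 and 9.49 in oviduct embryos and 6.36 and 7.14 in uterus embryos. This probe fell by 2.87 (SE 0.38, limma adjusted p = 0.0491). The brightest Txnip probe was at 7.71 and 7.10 in ICI-treated embryos and at 9.97 and 10.63 in oviduct embryos, with a difference of -2.89 (SE 0.46) that did not pass (adjusted p = 0.065). Among 14 alpha-arrestin and glucose-responsive genes on the array, 9 were above background, 4 above and 5 below 0, with Arrdc4 called at its brightest probe. Mlxipl had a difference of -1.28 (adjusted p = 0.141) and Mlxip one of 0.19 (adjusted p = 0.593), both named after their values were seen. CACGTG was present in 3 of 33 promoter windows of genes that rose (9.09%) and 2 of 14 of genes that fell (14.3%). The shorter ACGTG, the core bound by HIF1, was in 9 of 33 (27.3%) and 4 of 14 (28.6%), against 19.6% of all windows. No test of these shares was made. The palindrome that estrogen receptors bind, searched as GGTCA, any 3 bases and TGACC, was in 0 of either set and in 0.07% of all windows.

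Tnfsf13b, Ctsz, Psmb10, Arg1 and Dpep3 also fell. Tnfsf13b, which encodes a cytokine that sustains B cells, was at 5.36 and 5.46 in ICI-treated embryos, 7.47 and 8.02 in oviduct embryos and 5.88 and 5.73 in uterus embryos. It fell by 2.34 (SE 0.23, limma adjusted p = 0.0361), and its other probe had a difference of -2.46 that also passed. Ctsz, a lysosomal cathepsin gene, was at 7.45 and 7.40 in ICI-treated embryos and at 9.24 and 8.83 in oviduct embryos, and fell by 1.61 (SE 0.21) and by 1.6 at its 2 probes. Psmb10, a catalytic subunit gene of the immunoproteasome, fell by 1.43 (SE 0.19, limma adjusted p = 0.0497), with -1.46 (adjusted p = 0.065) at its other probe. Arg1, whose enzyme splits arginine into ornithine and urea, was above background on no array of ICI-treated embryos and read 5.85 and 6.32 in oviduct embryos, so that it was at least 2.09-fold lower in ICI-treated embryos (limma adjusted p = 0.0485). A second Arg1 probe had a difference of -0.50. Dpep3, a membrane dipeptidase gene, was at 6.09 and 6.10 in ICI-treated embryos and at 8.01 and 8.19 in oviduct embryos, and fell by 2.01 (SE 0.17, limma adjusted p = 0.0328).

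The remaining genes that fell encode a calcium sensor, a calcium channel and others. Tesc, the calcium-binding protein tescalcin, was at 5.58 and 5.48 in ICI-treated embryos and 7.71 and 7.15 in oviduct embryos, and fell by 1.90 (SE 0.23). Ryr1, a calcium release channel of muscle, fell by 1.5 (SE 0.19), with -1.28 and -0.60 at its other probes, neither past the threshold. Tdrd12, a gene of the piRNA pathway that silences transposons in the germ line, was at 6.26 and 6.25 in ICI-treated embryos and 8.12 and 8.05 in oviduct embryos, and fell by 1.83 (SE 0.19). Sox12, a transcription factor gene, fell by 1.68 (SE 0.18) while another of its probes had a difference of 0.32, of opposite sign. Kng1, which encodes kininogen, fell by 1.63 (SE 0.21), with 1 of the 2 arrays of ICI-treated embryos above background. Smco2 fell by 1.48 (SE 0.19), and Snhg18, a noncoding RNA gene, by 1.29 (SE 0.17).

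Uterus embryos read closer to ICI-treated than to oviduct embryos at most of the called probes. The uterus mean was nearer the ICI-treated mean at 57 of the 60 (95%), 37 of 39 higher and 20 of 21 lower. It lay between both groups at 49, beyond the ICI-treated mean at 11 and beyond the oviduct mean at 0. The uterus mean was nearer the ICI-treated mean at 57.7% of all tested probes and at 62.2% of those whose ICI-treated and oviduct arrays did not overlap. These positions use the same arrays of ICI-treated and oviduct embryos as the calls, and no test of them was made.

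Among 36 gene lists, medians ran from 0.59 for trophectoderm genes to -0.50 for oocyte and early cleavage genes and for blood and immune markers, and few members were called. Each gene entered at its brightest probe. Over all 9857 genes the median log2 difference was -0.04, with 4532 (46%) above 0, and 31 (0.314%) were called, 21 higher (0.213%) and 10 lower (0.101%). Groups did not overlap for 53.4% of genes, with 23.8% higher and 29.6% lower. Lists are described by counts and medians against these figures.

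Trophectoderm genes numbered 28 on the array, of which 22 were above background. Their median log2 difference was 0.59, with 20 above 0 and 2 below. The arrays did not overlap at 17 higher and 1 lower gene, and 1 gene, Wnt6, rose. Elf5, a transcription factor gene that maintains trophoblast, was at 7.80 and 8.32 in ICI-treated embryos and at 6.51 and 4.71 in oviduct embryos (2.45, SE 0.54, limma adjusted p = 0.0955). Eomes, a T-box gene of trophoblast, had a difference of 1.58 (SE 0.38, adjusted p = 0.109) and the GATA factor gene Gata2 one of 1.62 (SE 0.43, adjusted p = 0.125). Keratin and junction members differed less, with 0.64 for Krt18 and 0.74 for Cldn4, and Gata3 had 0.34. Elf5, Eomes, Gata2, Krt18, Cldn4 and Gata3 were named after their values were seen. Centred on each gene's mean, the list's median was 0.13 and 0.27 on arrays of ICI-treated embryos, -0.24 and -0.57 on oviduct arrays and 0.26 and 0.23 on uterus arrays. The lowest array was oviduct replicate 2, on which several markers of maternal cells described further on were highest, and their part in the result was not tested. In pools like these, fewer cells of a type and less RNA per cell cannot be told apart.

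Heat shock genes, the chaperones induced by protein damage, had 20 members on the array and 18 above background. Their median was -0.38, with 2 above 0 and 16 below, none was called, and arrays did not overlap at 12 lower and 1 higher gene. Hspa2 was at 7.38 and 7.24 in ICI-treated embryos and at 8.32 and 8.33 in oviduct embryos (-1.02, SE 0.17, limma adjusted p = 0.0677). Stip1, a cochaperone gene, had a difference of -0.76 (adjusted p = 0.111). At its brightest probe Hspa1a, the stress-inducible Hsp70 gene, was above background on no array of ICI-treated embryos and read 6.14 and 8.49 in oviduct embryos, at least 4.89-fold lower in ICI-treated embryos with an adjusted p of 0.134. Another Hspa1a probe, detected on 1 of the 2 arrays of ICI-treated embryos, had a difference of -0.43. The gene was named after its values were seen. Centred list medians were -0.15 and -0.10 on arrays of ICI-treated embryos, 0.20 and 0.26 on oviduct arrays and -0.21 and 0.03 on uterus arrays, so both oviduct pools stood above the others.

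**Figure D3:**
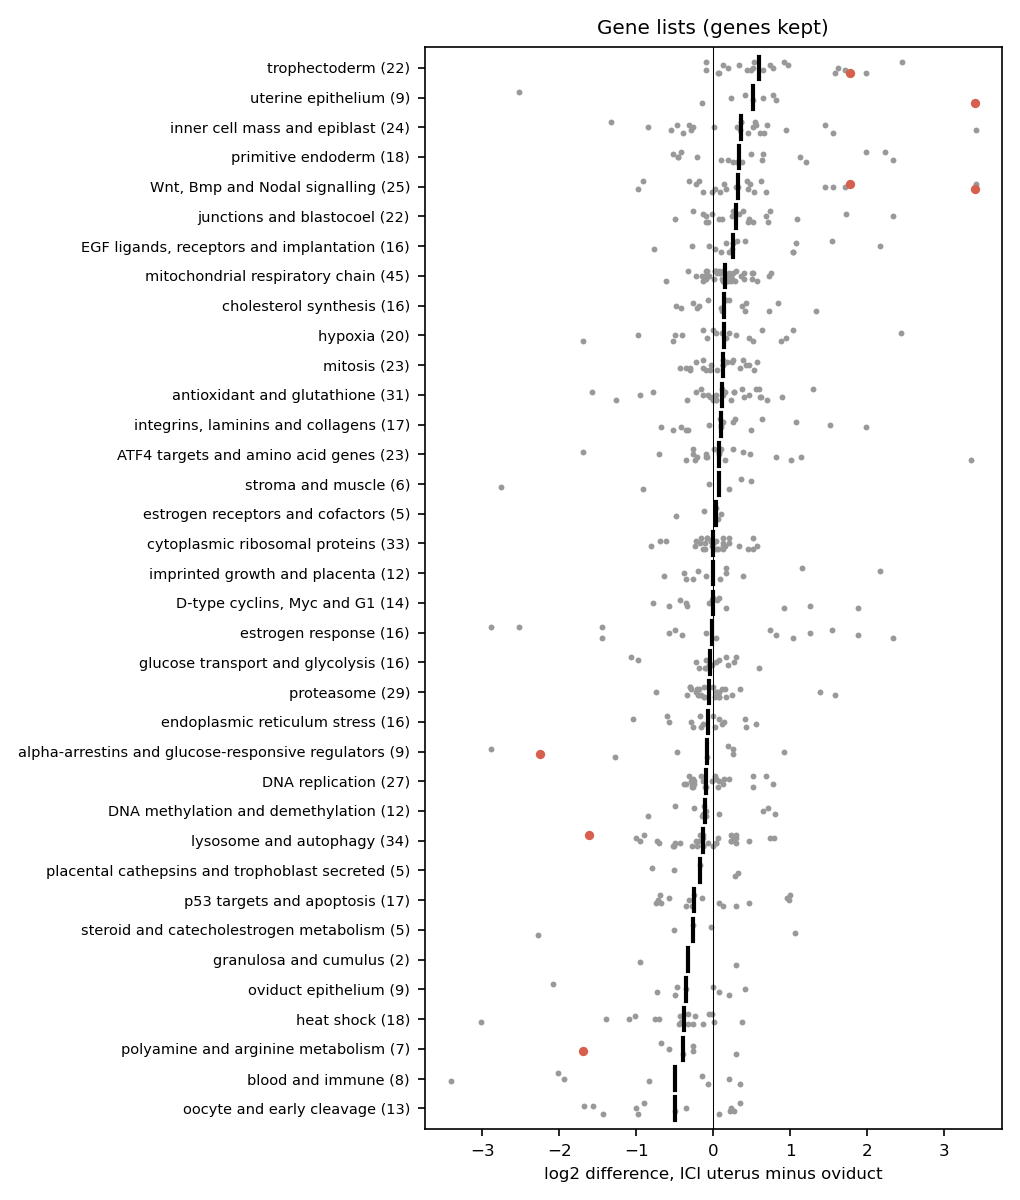
Each row is 1 of 36 gene lists and each point the log2 difference, ICI-treated uterus minus oviduct, of 1 gene at its brightest probe; bars mark list medians and red points called genes. Trophectoderm genes (median 0.59) lie mostly right of 0 and heat shock genes (median -0.38) mostly left, oocyte and early cleavage genes (median -0.50) are at the bottom, and few points in any row are red.

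Ligand and pathway genes of Wnt, Bmp and Nodal signalling had 32 members on the array and 25 above background. Their median was 0.32, with 18 above 0, and 2 rose, Msx1 and Wnt6. Lefty2, a secreted inhibitor of Nodal, was at 7.59 and 9.06 in ICI-treated embryos, 5.03 and 4.79 in oviduct embryos and 7.69 and 8.25 in uterus embryos. Its difference of 3.41 (SE 0.46) missed the threshold narrowly (limma adjusted p = 0.0506). Nodal itself had a difference of 1.45 (SE 0.28, adjusted p = 0.0786). Bmpr2, a receptor for bone morphogenetic proteins named after its values were seen, had a difference of -0.92 (SE 0.19, adjusted p = 0.0851).

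For the inner cell mass and epiblast, 24 genes of 25 on the array were above background, with a median of 0.36, 16 above 0 and none called. Otx2, a homeobox gene of epiblast, was at 7.35 and 7.34 in ICI-treated embryos and 8.55 and 8.80 in oviduct embryos (-1.33, SE 0.19, limma adjusted p = 0.0526). Nanog, a pluripotency factor gene, was at 10.77 and 10.65 in ICI-treated embryos and 11.64 and 11.49 in oviduct embryos (-0.85, SE 0.17, adjusted p = 0.085), while another Nanog probe had a difference of 1.29. Members of this list thus stood on both sides of 0, with Otx2 and Nanog below it and Lefty2 and Nodal, which it also holds, above it.

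Primitive endoderm genes had a median of 0.34 over 18 genes of 20 on the array, 13 above 0, with none called. The laminin gene Lama1 was at 9.40 and 10.63 in ICI-treated embryos and at 8.29 and 7.79 in oviduct embryos (1.98, SE 0.41, adjusted p = 0.085). Sox17, an endoderm transcription factor gene, had a difference of 2.23 (SE 0.48, adjusted p = 0.0941). Gata6, the early endoderm factor gene, lay the other way at -0.46 (adjusted p = 0.208).

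Genes tied to estrogen went both ways. The estrogen response list had 26 genes on the array and 16 above background, with a median of -0.02, 8 on either side of 0 and differences of -2.89 to 2.33. Of the 16, 6 were higher and 2 lower at an unadjusted p under 0.05, where 8.72% and 11.3% of all genes were, and arrays did not overlap at 7 higher and 3 lower. Only Txnip, which belongs to this list too, was called, at 1 of its probes. Ltf, which the uterine epithelium list also holds, was named after its values were seen. At its brightest probe it was at 4.91 and 5.20 in ICI-treated embryos, 6.69 and 8.46 in oviduct embryos and 7.32 and 6.46 in uterus embryos. Its difference was -2.52 (SE 0.57, limma adjusted p = 0.1). Ccnd1, a cyclin gene of G1, was at 7.47 and 8.25 in ICI-treated embryos and at 5.82 and 6.14 in oviduct embryos (1.88, SE 0.30, limma adjusted p = 0.065). Lif, the cytokine gene that implantation requires in the mouse uterus, was at 6.41 and 6.78 in ICI-treated embryos, 5.44 and 4.67 in oviduct embryos and 7.33 and 6.79 in uterus embryos (1.54, SE 0.32, adjusted p = 0.0875). The 10 probes of the receptor genes Esr1, Esr2, Gper1 and Pgr were not detected on both arrays in any group, so they are left without values. Of 14 receptor and cofactor genes on the array 5 were above background, with a median of 0.04.

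Growth, implantation and junction genes mostly lay above 0. Ligands, receptors and other genes of implantation had a median of 0.25 over 16 genes, 13 of them above 0, and the growth factor gene Igf2 had the largest difference there (2.16, SE 0.33, limma adjusted p = 0.0618). Genes of junctions and the blastocoel had a median of 0.30 over 22 genes, 15 above 0. The tight junction genes Cldn3 (1.73, SE 0.30, adjusted p = 0.0689) and Tjp3 (1.09, adjusted p = 0.068) had its smallest p. None of these lists had a called member.

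Metabolic lists held few calls. Polyamine and arginine genes had a median of -0.40 over 7 genes of 10 on the array, 6 below 0, and 1 fell, Arg1. Lysosome and autophagy genes had a median of -0.13 over 34, 20 below 0, and 1 fell, Ctsz. Respiratory chain genes had a median of 0.15 over 45, with 35 above 0, and hypoxia genes one of 0.14 over 20, 13 above 0, with none called. Differences within the hypoxia list ran from -1.69 for Ddit4 (SE 0.64, limma adjusted p = 0.211) to 2.44 for Ndrg1 (SE 0.51, limma adjusted p = 0.0875). Ddit4 and Ndrg1 were named after their values were seen. Vegfa, a growth factor gene of blood vessels, had a difference of 1.04 (SE 0.18, limma adjusted p = 0.0689). Egln1, an oxygen-sensing hydroxylase gene, had one of 0.95 (adjusted p = 0.0689), and Ldha, the lactate dehydrogenase gene, -0.98 (SE 0.22, adjusted p = 0.0955). Hif1a, the oxygen-regulated transcription factor gene, was at 6.56 and 6.62 in ICI-treated embryos, 5.91 and 6 in oviduct embryos and 5.36 and 5.77 in uterus embryos (0.63, SE 0.20, adjusted p = 0.166). Slc7a3, a transporter of basic amino acids, was at 10.01 and 10.59 in ICI-treated embryos and 7.78 and 6.12 in oviduct embryos (3.35, SE 0.51, adjusted p = 0.0618). Glycolysis genes (-0.04), proteasome genes (-0.05) and cytoplasmic ribosomal protein genes (0.00) had medians near that of all genes.

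In the remaining lists no member was called, and the 2 genes of smallest p in each are given as values. Among cell cycle genes they were 1.25 for the transcription factor gene Myc beside Ccnd1 (list median -0.01 over 14 genes), 0.78 and 0.52 for the replication genes Tyms and Rfc3 (-0.10 over 27), and 0.57 and 0.42 for the mitosis genes Pttg1 and Kif20a (0.12 over 23). For genes of integrins, laminins and collagens (0.10 over 17) they were the fibronectin gene Fn1, at 1.51 (adjusted p = 0.0747), and Lama1. The proteasome regulatory subunit genes Psmd2 and Psmd3 had differences of 1.58 and 1.38, and 13 of the 29 proteasome genes lay above 0 and 16 below. Cholesterol synthesis genes (0.14 over 16) were represented by Nsdhl at 1.33 and Srebf2 at 0.84. Genes of p53 targets and apoptosis (-0.25 over 17) had 1.00 for Pmaip1 and 0.96 for Bcl2l11, both promoters of cell death, against the direction of their list's median. Steroid metabolism genes (-0.27 over 5) had 1.06 for Hsd17b11 and -2.28 (SE 0.86, adjusted p = 0.21) for Hsd17b1, an estradiol-forming dehydrogenase gene that read 6.47 and 6.23 in ICI-treated embryos and 7.25 and 10.01 in oviduct embryos.

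Genes of ATF4 targets and amino acids (0.07 over 23) had Slc7a3 and Cbs, at 1.01. Genes of DNA methylation and demethylation (-0.11 over 12) had the methyl-CpG binding genes Mbd2 at -0.85 and Mbd3 at 0.80. Stress genes of the endoplasmic reticulum (-0.07 over 16) had the chaperone gene Dnajb9 at -1.05 and the sensor gene Ern1 at -0.58. Respiratory chain members of smallest p were Atp5j at 0.75 and Cox6c at -0.61, and ribosomal ones Rplp2 at -0.69 and Rps7 at 0.57. The glucose transporter gene Slc2a8 was at 7.82 and 7.86 in ICI-treated embryos and at 8.97 and 8.86 in oviduct embryos (-1.07, SE 0.17, adjusted p = 0.065), with its other probes at 0.05 and 0.01. Genes of placental cathepsins and trophoblast secretion (-0.17 over 5) had Rhox5 at -0.80 and Prl2c2 at least 1.15-fold lower. This list, whose largest difference was 0.32, does not hold BC051665, a gene of the placental cathepsin family that rose by 5.13 and 4.91. Imprinted genes (0.00 over 12) had Igf2 and Dlk1, the second at least 1.24-fold lower. Of the receptor and cofactor genes, Crebbp stood at -0.49 and Foxa1 at -0.12. In the marker lists the values were -0.47 for Tubb4b (oviduct epithelium), -0.84 for Cd74 (immune cells), and -0.95 for Nr5a2 and 0.29 for Foxl2 (granulosa and cumulus). This Nr5a2 probe was bright in every group, at 9.39 and 9.26 in ICI-treated, 10.46 and 10.09 in oviduct and 9.74 and 9.36 in uterus embryos. Other Nr5a2 probes had differences of -0.85 and 0.27. The oocyte genes Dppa3 and Ooep had -0.35 and 0.35, while Pdgfrb (stroma) was above background in neither group.

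Several transcripts known from maternal tissue read higher in oviduct pools, most of all in replicate 2, without passing the test. Ovgp1, the oviduct-specific glycoprotein gene, was at 5.28 and 5.43 in ICI-treated embryos, 6.52 and 8.35 in oviduct embryos and 4.79 and 4.68 in uterus embryos (-2.08, SE 0.53, limma adjusted p = 0.116). Dcn, a proteoglycan gene of stroma, read 6.14 and 8.32 in oviduct embryos and was above background on no array of ICI-treated embryos, at least 4.61-fold lower in these (adjusted p = 0.1). Lyz1, a lysozyme gene, was at 4.84 and 7.61 in ICI-treated embryos and 8.78 and 10.48 in oviduct embryos (-3.41, SE 0.91, adjusted p = 0.126). Its relative Lyz2, of macrophages, was at 4.50 and 5.23 in ICI-treated embryos and 5.87 and 7.75 in oviduct embryos (-1.94, adjusted p = 0.147). Hba-a1, a globin gene, did not share this pattern. It was at 5.58 and 6.89 in ICI-treated embryos, 5.79 and 10.73 in oviduct embryos and 10.18 and 8.67 in uterus embryos. Only oviduct replicate 2 was thus above both arrays of ICI-treated embryos, as were both uterus arrays. Lyz2 and Hba-a1 were named after their values were seen. Prap1, a secreted protein gene of uterine epithelium, was at 4.56 and 5.08 in ICI-treated embryos, 4.52 and 4.66 in oviduct embryos and 10.19 and 8.76 in uterus embryos, so that both uterus arrays were above the other 4.

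As lists, the markers of other cells gave no calls except Msx1, which the uterine epithelium list also holds. Oviduct epithelium markers had 9 of 17 genes above background, 6 below 0, and summed signals of 3640 and 3630 in ICI-treated embryos and 5110 and 5090 in oviduct embryos. Most of these sums came from the tubulin gene Tubb4b. Its log2 signals were 11.70 and 11.66 in ICI-treated embryos, 12.21 and 12.08 in oviduct embryos and 12.07 and 11.96 in uterus embryos. Blood and immune markers had 8 of 20, 6 below 0 with a median of -0.50, and sums of 779 and 1320 in ICI-treated embryos and 1090 and 4280 in oviduct embryos. Stroma and muscle markers had 6 of 18, 3 above and 3 below 0 with a median of 0.07, and sums of 499 and 743 in ICI-treated embryos and 851 and 812 in oviduct embryos. Pdgfra, which the primitive endoderm list also holds, contributed to these sums. It read 8.27 and 9.04 in ICI-treated embryos and 9.32 and 7.02 in oviduct embryos. Uterine epithelium markers had 9 of 16, and sums of 13900 and 15900 in ICI-treated embryos and 10000 and 8690 in oviduct embryos, to which genes of the embryo's own epithelium such as Krt18 contribute. Oocyte and early cleavage genes had 13 of 24, with a median of -0.50, 8 below 0 and arrays that did not overlap at 7 lower and 3 higher genes. Their sums were 26700 and 25100 in ICI-treated embryos and 25700 and 29100 in oviduct embryos, and granulosa and cumulus markers had 2 of 12. The part of other cells in the called genes was not tested.

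**Figure D4:**
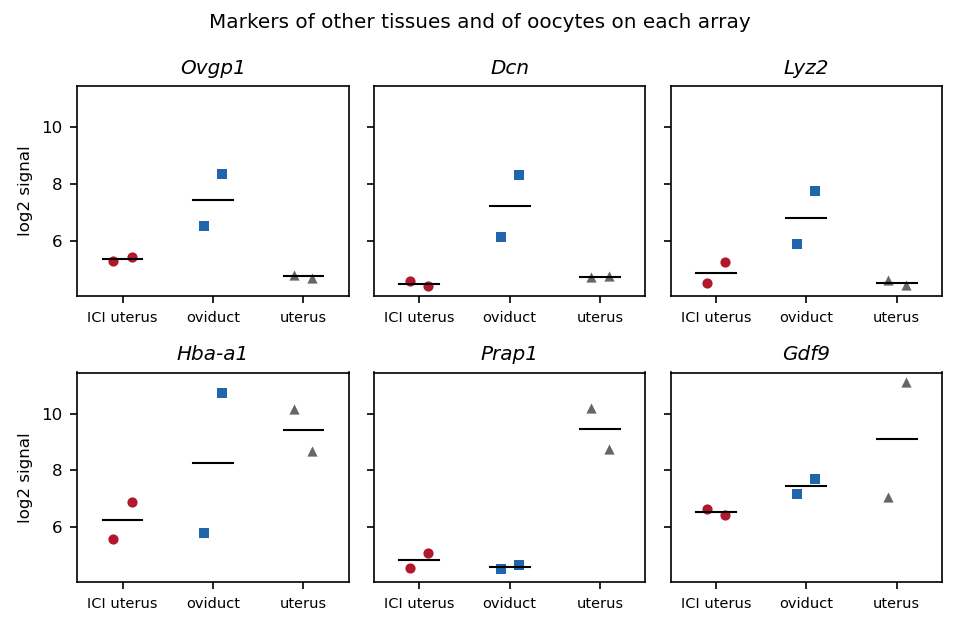
Log2 signal on each array of 6 genes known from other tissues (Ovgp1, Dcn, Lyz2, Hba-a1, Prap1 and Gdf9), with ICI-treated uterus, oviduct and uterus embryos from left to right. Ovgp1, Dcn and Lyz2 are highest on oviduct replicate 2, Prap1 on the uterus arrays, and Gdf9, a growth factor gene of oocytes, on uterus replicate 2.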

How the data were processed

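For the 6 arrays the authors deposited 1 table that gives, per its file headers, the mean bead intensity, the bead error as a signal, the bead count and a detection p-value of each probe. These intensities carry no normalization across arrays. A second deposited table holds log2 values, which equal log2 intensity minus a constant per array and an unknown constant per probe (largest residual 0.00172), with medians of -0.004 and 0.036 (ICI-treated uterus), -0.109 and -0.075 (oviduct) and 0.082 and 0.022 (uterus). They served as an alternative. The sources used here do not give the scanner software.

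Background correction (offset 16), quantile normalization and the log2 scale came from 1 function (neqc, limma 3.58.1, R 4.3.3). Probes with a detection p under 0.05 on both arrays of at least 1 of the 3 groups were kept (17677, of which 336 met this only in the uterus group). A linear model with 3 group means was fitted to all 6 arrays with lmFit and eBayes (degrees of freedom 3 residual and 3.77 prior). Moderated tests were two-sided, with Benjamini-Hochberg adjustment across kept probes and 0.05 as threshold. An exact permutation test of 2 arrays against 2 cannot go below p = 0.333. SE is that of the log2 difference, ICI-treated uterus minus oviduct. Where no array of a group detected a probe, "at least" sets the bright group's mean against a floor averaged over the dim arrays, which is each array's lowest detected signal or the probe's own signal where that is higher. The fitting script was tested on simulated data. The plots used Python 3.11.15 and matplotlib 3.10.9.

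The platform annotation gives 1 symbol for 34885 probes, several for 18 and none for 10378. Of the first, 34807 matched RefSeq genes of GRCm38.p6 by gene identifier, and 0 symbols changed. The comparison, its members and the 36 lists (909 names) were chosen with earlier results of these data known. The text names the 15 highest and 15 lowest differences at most among called, non-overlapping probes with 1 symbol that is not a clone name, at the probe of smallest p. The rule adds up to 4 called members of a list or the 2 of smallest p, and a fixed set (Cdx2, Pou5f1, Nanog, Gata6, Krt8, Esr1, Esr2, Gper1, Prap1, Txnip, Arrdc4, Msx1, Lif, Hif1a, Ovgp1, Wnt6 and Cebpa). Deviations of same-numbered arrays from their group means correlated at 0.07 between ICI-treated and oviduct embryos, and nothing in the labels pairs the numbers. Alternatives changed the scaling, background correction, filter, arrays in the fit and variance model.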

Additional observations from a re-analysis of the deposited data

How the results depend on the processing

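For genes changed, ICI-treated uterus minus oviduct, the count of 60 probes (39 higher and 21 lower) became 20 with the authors' processed values (10 higher and 10 lower), 4 without a detection filter (2 and 2), 11 with array weights (8 and 3) and 102 with a mean-variance trend (68 and 34). With only the 4 arrays of the 2 groups it was 0 (0 higher and 0 lower), with 2883 probes at an unadjusted p under 0.05 and adjusted p of 0.0978 to 0.186 at the 60 probes. Median scaling gave 56 (19 higher and 37 lower). The count was 81 without background correction (44 and 37), and 85 both with a detection p under 0.01 and with only probes detected in these groups (51 and 34). The share of higher calls, 65%, was 33.9% with median scaling, 54.3% without background correction and 50% with the authors' values and without a detection filter. The median of all probes was -0.26 under median scaling and -0.06 to 0.03 in the other settings, and values under median scaling are relative to that. Leaving out 1 array in turn gave 0 to 2844 calls, 0 to 1569 higher and 0 to 1275 lower. The lone array of a group was then assumed to vary like the other groups. With the replicate number as a block 5 probes passed (4 higher and 1 lower), and the numbers are not shown to pair the arrays. Of the 60 probes, 35 were called with median scaling, 18 with the authors' values and 57 with the trend, and all 60 kept their sign under each of these 16 settings, as separate groups largely fix. The cause of these shifts was not tested. Sign changes among genes named by the rule, none of them called, were -0.03 for Krt8 with median scaling and 0.05 for Foxa1 with the authors' values. Leaving out 1 array in turn gave -0.35 (without oviduct replicate 1) to 1.58 for Pou5f1, -0.03 (without ICI replicate 2) to 0.49 for Prap1, -0.11 (without oviduct replicate 2) to 0.39 for Krt8, and -1 to 0.01 (without oviduct replicate 1) for Crebbp. For Foxa1 it gave -0.32 to 0.09, with 0.01 without ICI replicate 2 and 0.09 without oviduct replicate 2. Under median scaling the trophectoderm median of 0.59 was 0.33 and the heat shock median of -0.38 was -0.62, and under the authors' values they were 0.44 and -0.39. Low signals over background limit genes such as Msx1, Blnk and Arg1.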
